A study of Mus musculus with 6 samples.

Results

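Mesothelium is the sheet of flat epithelial cells that lines the body cavities and covers the organs within them, and epicardium is the mesothelium of the heart. Both keep epithelial features while they express transcription factors shared with mesoderm, and epicardial cells can leave the sheet to become fibroblasts and smooth muscle of the heart. The epicardium is also known as a source of retinoic acid (RA), a signal derived from vitamin A that is sensed by nuclear receptors and that epicardial cells make with the enzyme Aldh1a2. Described here are 7 genes used as markers of these cells. The rule lists them by name and uses no measured value, although the list was drawn up with earlier results of these data known. The array annotation assigns 12 of its 45037 probe sets to them. A probe set is a group of short probes that reads 1 transcript or a few similar ones. The genes comprise the transcription factor genes Wt1, Tbx18 and Bnc1, the surface protein genes Msln, Upk3b and Upk1b, and Lrrn4, whose product is a membrane protein with leucine-rich repeats.

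Expression was measured in embryoid bodies, aggregates in which mouse embryonic stem cells of the D3 line differentiate, 10 days into culture without LIF on a rotary platform. Bodies of both groups held gelatin-coated microspheres. In the 3 control samples the microspheres carried the dye CellTracker Red, and in the 3 RA samples they carried retinoic acid, so that the groups differ in both agents. Each sample was total RNA of whole bodies on 1 array. Several microsphere ratios and rotary speeds are mentioned in the design without saying which of them was used for the arrays, and the triplicates are not said to be separate cultures, so p-values measure a spread between samples that may be technical.

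The 2% trimmed mean of the deposited intensity ran from 108 to 191 over the 6 arrays and was lowest on control array 3, so arrays were brought to a common distribution before testing. RA array 1 had a 3-prime to 5-prime intensity ratio of 34.0 for Gapdh, against 3.06 to 4.74 on the other 5 arrays. A higher ratio is a sign of less intact RNA. The actin ratio lay between 3.35 and 4.24 on the control arrays and between 4.35 and 7.42 on the RA arrays (exact two-sided permutation p = 0.1, the smallest that 3 against 3 arrays can give). Of 13608 genes tested with limma, 4076 (30.0%) passed an adjusted p of 0.05, 15.6% lower and 14.3% higher with RA. Without scaling between arrays 72.9% of calls were higher, against 47.8% after normalization, and the median log2 difference of all genes moved from 0.01 to 0.26.

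The transcription factor genes of the set were lower with RA and Lrrn4 was higher, while the genes of the surface proteins did not pass or were too dim to test. Bnc1 was 12.4 times lower, Wt1 2.54 times lower and Tbx18 2.26 times lower, and Lrrn4 was 2.81 times higher (limma, n = 3 arrays a group). Of the 7 genes, 6 had a probe set bright enough for the signal filter, a 6-array mean log2 level of 5.74 that corresponds to the 40th percentile of all probe sets. Upk3b did not. Of these 6 genes 3 fell, 1 rose and 2 did not pass, beside the 15.6% and 14.3% of all genes that were called lower and higher. Their median log2 difference was -0.88, against 0.01 for all genes tested. For 5 of the 6 genes all RA arrays lay on 1 side of all control arrays, 4 lower and 1 higher, beside 44.0% of all genes in either direction and 22.2% lower. Tbx18 and Bnc1 had RA means below the filter level and passed it through their control arrays. Msln had a control mean below that level and passed it through its RA arrays. These counts therefore describe the genes that could be tested and not the whole set. Each array read whole bodies, in which fewer cells of a type and less RNA per cell cannot be told apart.

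**Figure D1:**
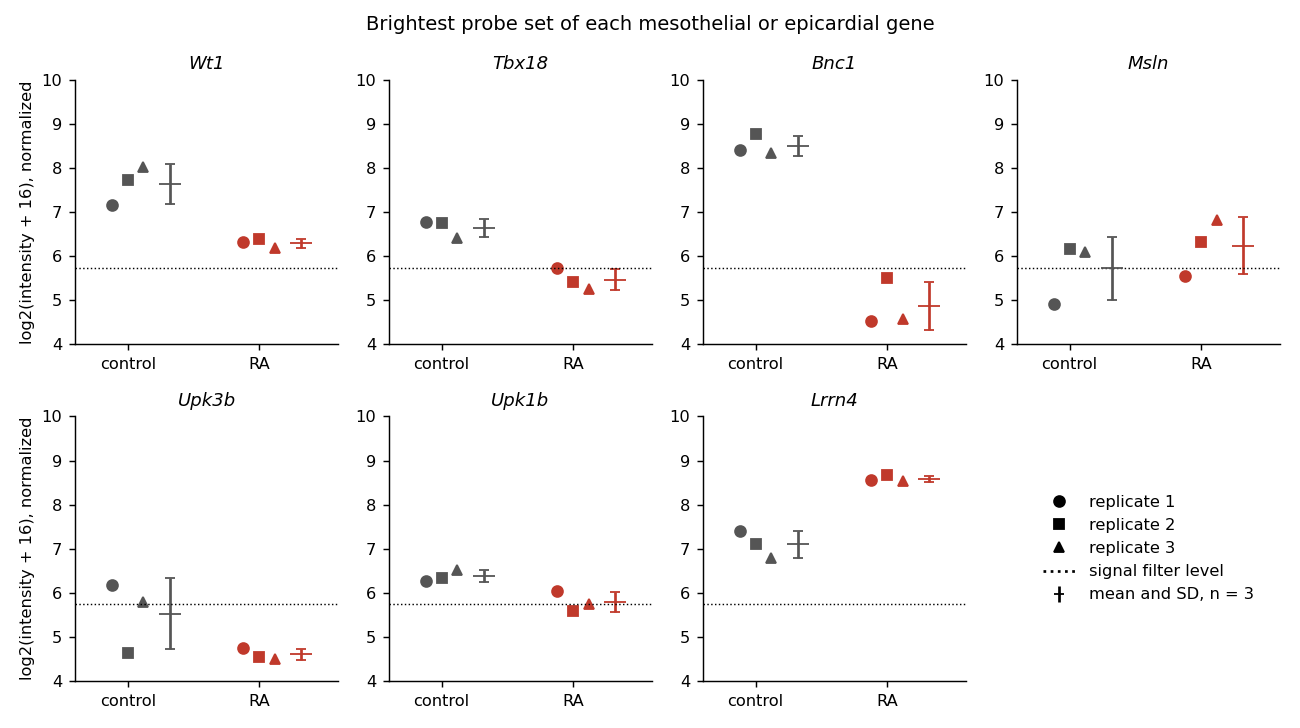
Normalized log2(intensity + 16) of the brightest probe set of each of the 7 genes on 3 control arrays (grey) and 3 RA arrays (red), with group mean and SD. The dotted line is the filter level of 5.74. Bnc1 fell from between 8.33 and 8.76 to between 4.53 and 5.50, and Lrrn4 rose from between 6.79 and 7.40 to between 8.54 and 8.67.

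The promoters of Bnc1, Tbx18 and Lrrn4 are shown because these genes changed with RA and have an entry in the RefSeq promoter table (GRCm38.p6), which holds 4 of the 7 genes, Upk3b being the other. Each sequence is the 250 bases before a start site, read along the gene. Bnc1 is at chr7:81992300-81992549 (minus strand), Tbx18 at chr9:87731261-87731510 (minus strand) and Lrrn4 at chr2:132880863-132881112 (minus strand). Capitals mark matches, on either strand, to 8 short letter sets that were searched. TEAD factors are represented by GGAATG, zinc finger proteins such as WT1 and EGR by GCGTGGG, factors of the GATA family by AGATAA, and the box for basal transcription by TATAAA. Retinoid receptors are represented by their core site AGGTCA, together with its variants, which were GGTTCA in one form, AGTTCA in another form, and GGGTCA in the remaining form.
Bnc1: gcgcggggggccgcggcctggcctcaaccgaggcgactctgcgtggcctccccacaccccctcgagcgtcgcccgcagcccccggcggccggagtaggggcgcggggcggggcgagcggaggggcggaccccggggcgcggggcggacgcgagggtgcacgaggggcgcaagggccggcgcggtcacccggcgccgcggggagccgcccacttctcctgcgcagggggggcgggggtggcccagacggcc
Tbx18: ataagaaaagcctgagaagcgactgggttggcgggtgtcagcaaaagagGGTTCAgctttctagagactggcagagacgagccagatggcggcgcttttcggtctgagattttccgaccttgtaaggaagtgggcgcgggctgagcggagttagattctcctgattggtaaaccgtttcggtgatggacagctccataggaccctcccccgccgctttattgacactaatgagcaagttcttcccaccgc
Lrrn4: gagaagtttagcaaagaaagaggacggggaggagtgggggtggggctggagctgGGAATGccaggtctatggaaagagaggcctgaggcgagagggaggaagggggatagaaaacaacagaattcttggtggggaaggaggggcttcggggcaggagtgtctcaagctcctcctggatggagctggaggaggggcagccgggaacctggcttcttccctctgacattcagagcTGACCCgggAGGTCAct
The Bnc1 window held none of the 8 letter sets and consisted of G and C at 83.6% of its bases, a share exceeded or equalled in few windows, since 99.7% of the 32851 promoter windows of this length were lower. The Tbx18 window held 1 retinoid receptor core site, GGTTCA, at 201 to 196 bases before the start. The Lrrn4 window held a TEAD letter set and 2 retinoid receptor core sites, which lay 17 to 12 and 8 to 3 bases before the start, on opposite strands and 3 bases apart. No matches overlapped each other. The window of Upk3b, which was too dim to test and is not printed, also held GGAATG and 2 retinoid receptor core sites. These were AGGTCA and AGTTCA, 83 bases apart. Of all windows 38.6% held at least 1 retinoid receptor core site, 9.75% held at least 2, and 12.6% held GGAATG, so such matches are common. A match is a description of letters and not of binding.

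Bnc1 encodes basonuclin 1, a zinc finger protein known from basal keratinocytes, germ cells and mesothelium. Its deposited intensity was 351, 435 and 205 on control arrays 1 to 3. On RA arrays 1 to 3 it was 8.0, 32 and 9.02. Every RA array lay far below every control array, with RA array 2 the least low of them. On the normalized log2 scale controls stood at 8.50 ± 0.23 and RA bodies at 4.87 ± 0.54 (SD, n = 3), a difference of -3.63 ± 0.28 (SE, limma adjusted p = 3.01e-06). Of all genes 0.316% were called at least 8-fold lower. All RA arrays were below the filter level of 5.74, where signal is open to background, so the size of the fall is uncertain while the control mean stood 6.79 times above that level. The difference was -4.74 with a pseudocount of 1 and -2.39 with 64, and it passed in both. Without RA array 2 it was -3.91.

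Wt1 encodes the Wilms tumour zinc finger factor, which is required for epicardium and for kidney and gonad development. The deposited intensity of its only probe set was 129, 210.3 and 166 in the controls, in the order of their numbers, while the RA arrays read 67.9, 73.9 and 63.5. The lowest control array exceeded the highest RA array, and the RA arrays lay close together. After normalization controls stood at 7.63 ± 0.44 and RA bodies at 6.29 ± 0.11 on the log2 scale (SD, n = 3), a difference of -1.34 ± 0.24 (SE, limma adjusted p = 0.00129). The RA mean remained above the filter level, in contrast to Bnc1. The difference lay between -1.55 and -1.17 when any single array was left out, and each of these passed. The probe set carries the suffix that Affymetrix uses for probes shared between similar transcripts, so isoforms are not resolved. Wt1os, an RNA that starts beside Wt1 on the opposite strand and was looked at after the values of Wt1 were seen, had intensities of 3.04 to 20.6 in controls and 4.66 to 9.11 with RA, all among the dim values of the arrays.

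Tbx18 encodes a T-box repressor of the proepicardium and epicardium that is also known from the sinus node and the ureter. The brighter of its 2 probe sets read 90.3, 100.1 and 49.2 in the controls against 38.5, 28.9 and 24.9 with RA. The groups did not overlap, and control array 3, the dimmest array as a whole, came nearest to the RA values. Normalized levels were 6.64 ± 0.20 and 5.46 ± 0.24 on the log2 scale (SD, n = 3), a difference of -1.18 ± 0.28 (SE, limma adjusted p = 0.00793), and the RA mean was below the filter level. The second probe set lay below the filter in both groups, at 10.2 to 30.5 in controls and 5.17 to 10.2 with RA. Its difference had the same sign, -0.69, and did not pass in the limma fit of all probe sets without a filter (adjusted p = 0.0709), in which 6.15% of probe sets were called lower.

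Lrrn4 belongs to a family of leucine-rich repeat proteins known from neurons, and it serves as a marker of mesothelium in adult organs. Its intensity was 161, 132 and 67.4 in the controls against 369, 452 and 399.7 with RA. Every RA array stood well above the highest control array. Normalized log2 levels were 7.10 ± 0.31 for controls and 8.59 ± 0.07 for RA bodies (SD, n = 3), a rise of 1.49 ± 0.17 (SE, limma adjusted p = 5.59e-05). Both group means were above the filter level, and the difference ranged from 1.36 to 1.62 when single arrays were left out. Lrrn4 thus moved opposite to Wt1, Tbx18 and Bnc1 in the same bodies.

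Msln encodes mesothelin, a surface glycoprotein held by a lipid anchor. It read 12.8, 60.9 and 37.4 in the controls against 31.7, 70.5 and 109 with RA. The groups overlapped and the spread within each was wide, with SDs of 0.71 and 0.64 on the log2 scale. The log2 difference of 0.52 ± 0.42 (SE) did not pass (limma adjusted p = 0.402). Without control array 1 the difference was 0.10, and without RA array 1 it was 0.86, so its value rests on single arrays.

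Upk1b and Upk3b encode uroplakins, membrane proteins of the bladder lining that mesothelial cells also make. The kept probe set of Upk1b read 57.6, 70.9 and 54.1 in the controls against 52.6, 34.9 and 42.1 with RA. The groups did not overlap, but only by a small margin. The normalized difference was -0.59 ± 0.27 (SE) and did not pass (limma adjusted p = 0.129), although it did in a fit without a trend of the variance on the mean (limma adjusted p = 0.0336). Its suffix marks probes that may bind unrelated transcripts. The other 3 Upk1b probe sets were below the filter, with log2 differences of -1.003, 0.11 and 0.22, so the probe sets of this gene did not share a direction.

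Upk3b had both probe sets below the filter. The brighter one gave 52.6, 9.62 and 28.1 in the controls against 11.9, 8.10 and 7.66 with RA. Control arrays 1 and 3 stood above every RA array and control array 2 fell among them. Its log2 difference of -0.93 did not pass in the limma fit of all probe sets without a filter (adjusted p = 0.154). The second probe set gave 7.43 to 9.58 in controls and 9.61 to 11.8 with RA, with a log2 difference of -0.02. At this signal a difference in Upk3b was not detectable, which does not show that it was absent. Upk3bl, a paralogue beside Upk3b on chromosome 5 that was looked at after the values were seen, gave 8.81 to 43.3 in controls and 18.6 to 49.4 with RA.

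**Figure D2:**
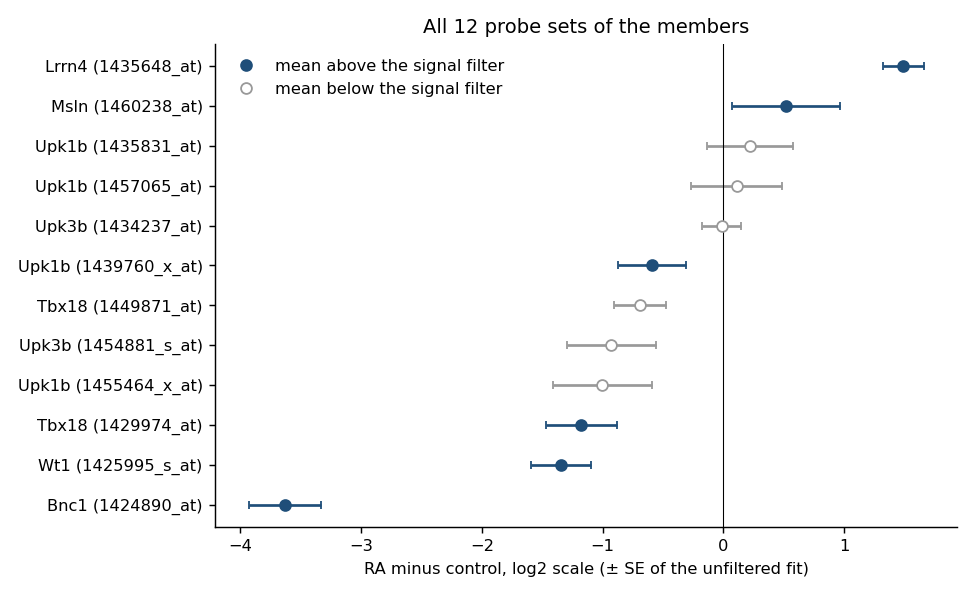
Difference between RA and control on the log2 scale for all 12 probe sets, with the standard error of the fit without a filter. Filled points are the 6 probe sets above the signal filter and open points the 6 below it. The differences run from -3.63 for Bnc1 to 1.49 for Lrrn4, and the Upk1b probe sets lie on both sides of 0.

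Over all 12 probe sets, 6 lay above the filter and 6 below. RA and control arrays were fully apart for 7 of them, 6 lower and 1 higher with RA, beside 28.5% of all 45037 probe sets in either direction and 13.5% lower. In the limma fit over 27022 kept probe sets, in which 11.1% were called lower and 11.3% higher, the same 4 genes passed, with adjusted p of 7.24e-06 for Bnc1, 0.00210 for Wt1, 0.00998 for Tbx18 and 0.000122 for Lrrn4. For each of these 4 genes a single probe set was above the filter, so no second reading tests the call.

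Paralogues of the members were read to see which family members shared a direction. Bnc2, the second basonuclin gene, fell like Bnc1. Its log2 levels were 8.72 ± 0.15 for controls and 6.27 ± 0.56 for RA bodies (SD, n = 3), a 5.45-fold fall (limma adjusted p = 2.31e-05). The Lrrn genes went both ways. Lrrn1 rose 2.47 times (limma adjusted p = 0.00263), as Lrrn4 did, while Lrrn3 was 3.61 times lower (limma adjusted p = 0.000159), with an RA mean below the filter level that it passed through its control arrays. The uroplakin genes Upk1a, Upk2 and Upk3a did not pass, with log2 differences of 0.10, -0.85 and -0.01, and neither did the T-box genes Tbx15 and Tbx22 at 0.77 and 0.23. Egr1, whose zinc fingers bind a site like that of WT1, was 1.97 times lower (limma adjusted p = 5.17e-05) and did not pass without scaling. In this list of paralogues and partners 1 of 9 tested genes rose and 3 fell, beside 14.3% and 15.6% of all genes.

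**Figure D3:**
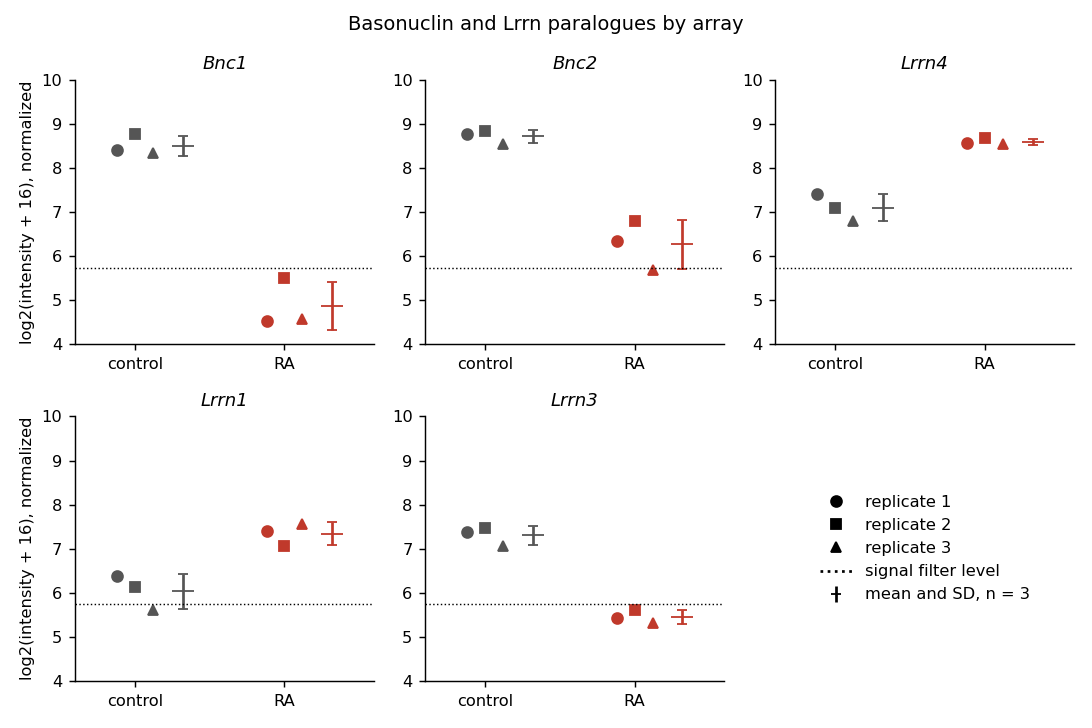
Normalized log2(intensity + 16) of the basonuclin genes and of 3 Lrrn genes on each array, with group mean and SD (n = 3) and the filter level of 5.74. Both basonuclin genes were lower on every RA array than on any control array, Lrrn4 and Lrrn1 were higher, and Lrrn3 was lower.

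Other markers of mesothelium moved in both directions. Clu, the secreted chaperone clusterin, was 12.1 times lower with RA (limma adjusted p = 2.80e-09), and Krt19, an epithelial keratin, 2.14 times lower. Podxl, which encodes the surface sialomucin podocalyxin, was 2.00 times higher, and Ptgis, the enzyme that makes prostacyclin, 3.01 times higher. Among these, the highest limma adjusted p was 0.000542. Of 14 tested genes 2 rose, 3 fell and 9 did not pass, and the median log2 difference was -0.08. Among all genes 14.3% were called higher and 15.6% lower, shares that also stand beside the counts of the lists below.

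Epicardial and proepicardial regulators were mostly lower. Of 18 tested genes 11 fell, 1 rose and 6 did not pass, with a median of -1.27. Hand2, a heart transcription factor, was 8.12 times lower, Gata6 2.88 times and Tmsb4x, which encodes the actin-binding peptide thymosin beta, 2.45 times. The growth factor gene Bmp2 was 2.16 times higher. The highest limma adjusted p among them was 2.71e-05. Tcf21, a factor of epicardial fibroblast precursors that is named here outside the fixed rule, fell by 1.62 ± 0.11 (SE) on the log2 scale, but only 1 of its 2 kept probe sets passed. Also outside that rule, Pdgfra and Tbx20 were called lower by 1 of 3 and 1 of 2 kept probe sets. Tbx5 fell to an RA mean below the filter level. Itga4, also listed among WT1 targets, did not pass by its brightest probe set, while 1 of its 3 kept probe sets passed as higher.

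Genes described as WT1 targets were called in both directions. Of 10 tested genes 3 rose, 1 fell and 6 did not pass, beside 14.3% of all genes higher and 15.6% lower. The median was -0.07. Podxl, Spry1 (1.57 times) and Erbb3 (1.605 times) were higher, and Aldh1a2, the retinoic acid synthesis enzyme of the epicardium, was 2.90 times lower, with limma adjusted p from 0.000100 to 0.00303. Targets and components of the YAP and TEAD pathway, which acts in epicardium, had a median of 0.08, with 2 higher and 2 lower of 11. That median was the value of Yap1, a factor and not a target, so it does not describe the targets alone. The targets Ctgf and Cyr61 had no probe set under these names. Ankrd1 and Axl were 4.96 and 3.15 times lower, and Ajuba and Amotl2 2.10 and 1.41 times higher, with limma adjusted p of at most 0.00646. Of the factors themselves, Tead1, Tead2, Tead3, Yap1 and Wwtr1 did not pass. Tead4 did not pass by its brightest probe set (0.34 on the log2 scale), while 1 of its 2 kept probe sets passed as higher (1.09). The RA mean of Ankrd1 was below the filter level.

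**Figure D4:**
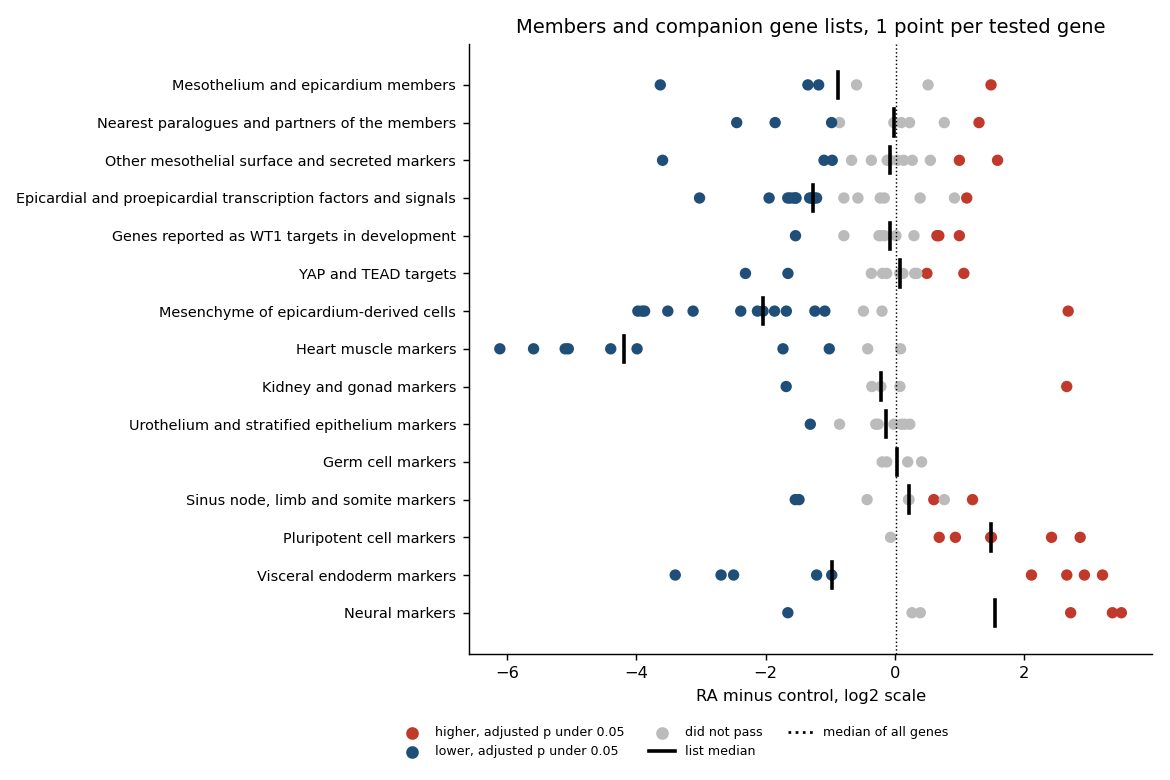
Difference between RA and control on the log2 scale for every tested gene of 15 lists, coloured by call (limma, adjusted p of 0.05), with the list median as a bar and the median of all genes as a dotted line. The median of the members was -0.88, that of epicardial regulators -1.27 and that of other mesothelial markers -0.08.

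Markers of other cells in the bodies also differed between the groups, and their part in the members' differences was not tested. For heart muscle 8 of 10 genes fell and 0 rose by limma's adjusted p (0 rose also at an unadjusted p under 0.05), with a normalized intensity, summed over the tested genes, of 12908 to 19527 on control arrays and 729 to 814 on RA arrays. Actc1, Myh6, Tnnt2 and Myl7 were among the genes that fell. The RA means of Myh6 and Tnnt2 were below the filter level and that of Actc1 (5.83) was at its edge, so no fold is given for them. Folds given for other genes with an RA mean below that level, Bnc1 among them, are uncertain for the same reason. Myl7 was 33.2 times lower. For mesenchyme of the kind that epicardial cells give rise to, 12 of 15 genes fell and 1 rose, and the sum was 32012 to 35936 in controls and 6804 to 7450 with RA. Postn and Acta2 were 15.0 and 14.6 times lower and Col3a1 5.22 times, and Thy1, whose control mean was below the filter level, was 6.43 times higher.

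Pluripotent cell markers were higher for 6 of 7 genes, with sums of 2040 to 2347 in controls and 6732 to 7702 with RA. Of these, Utf1 passed narrowly (limma adjusted p = 0.0499) with overlapping arrays, and only 1 of its 2 kept probe sets passed. Neural markers were higher for 3 of 6 and lower for 1, with sums of 735 to 918 in controls and 2263 to 2822 with RA. The lower gene, Ncam1, was called by 2 of its 4 kept probe sets. Pax6 did not pass by its brightest probe set, while 1 of its 2 kept probe sets passed as higher. Visceral endoderm markers were higher for 4 of 9 and lower for 5, with sums of 29211 to 30481 in controls and 9948 to 10969 with RA. These sums follow the brightest genes, Afp, Ttr and Rbp4 (control log2 means of 13.4, 13.5 and 12.3), which fell. Cubn, Amn, Sox17 and Foxa2 rose, so the list did not share a direction. Sox17 was called by 1 of its 2 kept probe sets, and Hnf4a was called lower by 1 of 4.

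Several members are also known from other tissues, whose markers were read in the same arrays. Among kidney and gonad genes, where Wt1 acts, 1 of 5 tested rose and 1 fell, with sums of 378 to 434 in controls and 618 to 734 with RA. The rise was Lhx1 (6.33 times), which also marks early streak and endoderm. Synpo was 3.21 times lower by its brightest probe set, with an RA mean below the filter level. Its second kept probe set passed as higher, and it became the brightest without any single control array, where the log2 difference was 0.95, 0.95 and 0.76. Pax8, Nr5a1, Lhx9 and Amh lay below the filter.

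Among urothelial and stratified epithelial genes, where uroplakins and Bnc1 are expressed, 0 of 8 rose by limma's adjusted p (0 also at an unadjusted p under 0.05) and 1 fell (Krt20, 2.47 times lower), with sums of 768 to 790 in controls and 546 to 697 with RA. The basal keratinocyte genes Krt5, Krt14 and Trp63 did not pass. Germ cell markers gave 0 limma calls in 4 tested genes (1 higher and 0 lower at an unadjusted p under 0.05), with sums of 578 to 731 in controls and 632 to 693 with RA. Among sinus node, limb and somite genes, where Tbx18 acts, 2 of 8 rose and 2 fell, with sums of 1278 to 1476 in controls and 1313 to 1551 with RA. Shox2 and Prrx1 were 2.79 and 2.91 times lower, and Tbx3 and Pax3 1.52 and 2.30 times higher. The call of Tbx3 rests on 1 of its 2 kept probe sets. Of 5 kept Prrx1 probe sets 2 passed as lower, and the mean of all 5 gave a log2 difference of -0.64 (limma adjusted p = 0.0411). The RA mean of Shox2 and the control mean of Pax3 were below the filter level.

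For each tested member the genes with the most similar profile were found among 12810 named genes, as the smallest Euclidean distance between log2 values centred on the mean of the 6 arrays. These profiles are dominated by the difference between the groups and are descriptions over 6 arrays. For Wt1 they were Slc36a4, an amino acid transporter gene, at a distance of 0.38, Gprc5a, an orphan receptor gene known to be inducible by retinoic acid, at 0.39, and Scarb2, a lysosomal membrane protein gene, at 0.43. They were 2.36 to 2.47 times lower with RA. The nearest to Bnc1 was Itih2, an inter-alpha-trypsin inhibitor gene, at 0.52, which was lower with RA, where its mean was also below the filter level, and, like Bnc1, was less low on RA array 2 than on the other RA arrays. The nearest to Tbx18 was Parva, an adhesion protein gene, at 0.14, and the nearest to Lrrn4 was Nxf7, of the RNA export factor family, at 0.25. For Upk1b it was the DNA repair gene Smug1 at 0.10 and for Msln it was Rhbdl3, a rhomboid protease family gene, at 0.27. Upk3b lay below the filter and has no such profile.

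**Figure D5:**
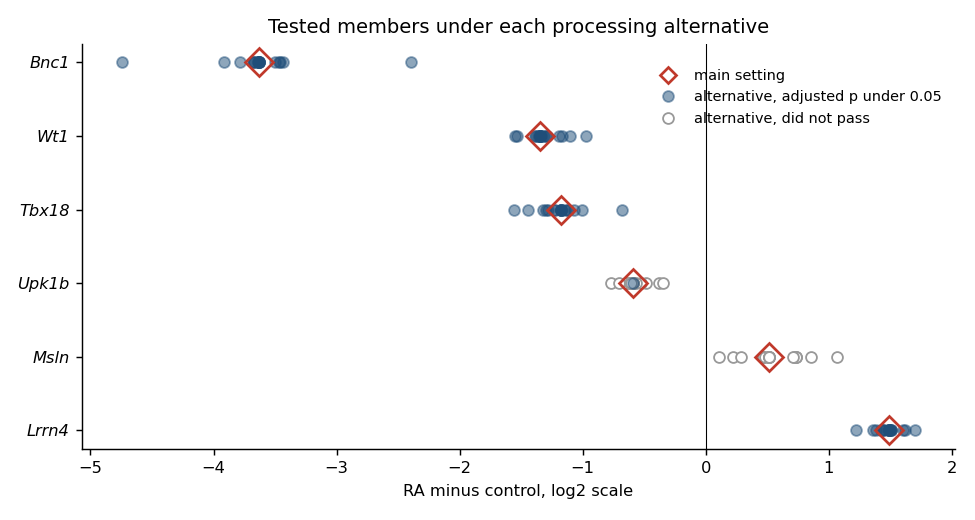
Difference between RA and control on the log2 scale for the 6 tested members in the main setting (diamond) and in up to 19 alternatives (circles, filled where adjusted p was under 0.05). Bnc1, Wt1, Tbx18 and Lrrn4 passed in each alternative that tested them, and Upk1b in 1.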

How the data were processed

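Per the labels, the authors deposited intensities on a linear scale that the Affymetrix GCOS software made at default settings from 6 arrays. The sources used here do not give its version or parameters. The 64 control probe sets were left out. Values were transformed as log2(intensity + 16) and quantile normalized between arrays. The pseudocount of 16 understates differences of dim genes. Probe sets with a mean above the 40th percentile (27022) were kept, and a gene was read by the brightest of its kept probe sets that name no other gene, for 13608 genes. Gene names came from the platform annotation. It gives 34945 probe sets 1 symbol, 932 several and 9160 none, and 34741 of those with 1 matched the GRCm38.p6 RefSeq table by gene identifier. The test was limma's (version 3.58.1, R 4.3.3; eBayes with trend, two-sided), with Benjamini-Hochberg adjustment over all genes and a threshold of 0.05. Summed levels are of normalized intensity with the pseudocount taken off.

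Chosen for naming were all members, up to 4 of the smallest p past the threshold from each companion list (at most 3 of one direction where both occurred), and the genes nearest in profile (3 for Wt1, 1 for each other tested member). Genes outside this rule are also named where a list is described, among them Ttr, Cubn, Amn, Foxa2, Hnf4a, Utf1 and Pax6. The chosen pluripotent genes, and the chosen neural genes other than Ncam1, are given only as counts. The members, lists and tests were chosen with earlier results of these data known. The limma fit alone was run on simulated gene values. Normalization, pseudocount, filter and choice of probe set were not part of that simulation. Alternatives covered scaling, pseudocount, filter, choice of probe set, variance model, replicate number and left-out arrays. Detection calls were not used here, and the number of arrays limits the precision. Python 3.11.15 was used for sequences and plots.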

Additional observations from a re-analysis of the deposited data

How the results depend on the processing

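Over the 19 alternatives the falls of Wt1 (-1.55 to -0.97 on the log2 scale) and Bnc1 (-4.74 to -2.39) and the rise of Lrrn4 (1.22 to 1.70) each kept their direction and their call, as did the fall of Tbx18 (-1.55 to -0.68) in the 18 that tested it. The call of Tbx18 was narrow in some of these, with limma adjusted p from 0.00323 up to 0.0473 without scaling. In the fit over kept probe sets, 2 member probe sets were called lower without scaling, against 3 in the main setting. With a 60th percentile filter Tbx18, Msln and Upk1b were not tested, and 2 members were lower. Msln passed in none (0.10 to 1.07, limma adjusted p 0.130 to 0.881). Upk1b passed in 1, the fit without a trend (-0.59, limma adjusted p = 0.0336). Without scaling between arrays 1750 genes were higher and 651 lower, against 1949 and 2127. The difference of the mean Gapdh 3-prime to 5-prime ratio between RA and control reversed to -0.179 without RA array 1. Replicate numbers are shared between the groups, but deviations of same-numbered arrays correlated at -0.09, -0.01 and -0.03, so they were not treated as pairs. With the replicate block 1775 genes were higher and 1949 lower, and Wt1 gave -1.34 (limma adjusted p = 0.00332). Of 54 other named genes, 993 of 1007 values under alternatives kept direction and call, 9 lost the call and 5 reversed. Of those, Synpo gave 1.16 with a pseudocount of 1 and from -2.02 to 0.95 when single arrays were left out, being above 0 without any single control array, where another probe set was the brightest, and Tbx3 gave -0.10 with the probe set of largest SD. Signals near the filter level limit what can be said of Upk3b, Upk1b, Msln and Tbx18.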
